A study of Mus musculus with 28 samples.

Results

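The genes described here were 31 markers, transmitter enzymes and neuropeptides of cortical interneurons, the inhibitory neurons that release GABA within the cortex. They were taken by gene symbol from the 52636 genes counted in each library. Of the 31 members, 29 had at least 1 fragment in some library and 28 passed the count filter, among 19171 genes that did. RNA was sequenced from punches of ventromedial prefrontal cortex of 28 female mice, 7 individual animals in each of 4 groups. The groups were mice with a virus labelled as a Slit1 knockdown that had 3 days of a stress procedure abbreviated sCVS, mice with the LacZ control virus and the same stress, mice with the knockdown virus and no stress, and mice with the LacZ virus and no stress. All of them carried a virus and were female. The promoter, the cells infected, the strain and the age are not given in the sources used here.

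Cortical interneurons are born outside the cortex, in the ventral forebrain, where Dlx genes drive the GABA program. Those from the medial ganglionic eminence pass through Nkx2-1 and Lhx6 and become parvalbumin cells, which inhibit cell bodies, and somatostatin cells, which inhibit dendrites. Those from the caudal ganglionic eminence use Prox1 and Adarb2 and become Vip cells, which inhibit other interneurons, Cck basket cells and neurogliaform cells.

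Total counts ran from 30.6 M to 44.3 M fragments per library. Slit1, the gene named by the knockdown label, averaged 18.2 ± 9.80 CPM (SD, n = 7) in knockdown stressed libraries and 19.8 ± 10.2 CPM in LacZ stressed libraries. Without stress it averaged 25.9 ± 17.5 CPM in knockdown and 24.4 ± 16.1 CPM in LacZ libraries. Averaged over stress states, its log2 fold change was -0.02 ± 0.30 (SE), with a 95% interval from -0.64 to 0.60. Knockdown libraries are therefore those labelled knockdown throughout, and a direction given for them is that of the label. CPM are fragments of a gene per 1 M counted, scaled by TMM. The excitatory marker Slc17a7 ranged from 13.2 to 451.2 CPM and the striatal receptor Drd1 from 8.65 to 51.2 CPM, and neither was at 0 in any library. Knockdown stressed replicate 7 stood apart, with the highest Drd1, Drd2, Rarb and Isl1 of all 28 libraries. Fold changes of members that rest on it are given with and without it. Striatal transcripts were not confined to it, as Drd2 reached 10.3 CPM in knockdown unstressed and 10.7 CPM in LacZ unstressed libraries. The libraries also differed along a gradient that was measured by the base composition of transcripts. The slope of log2 CPM, relative to each gene's mean over libraries, on the G and C share of its transcript, called the GC slope, ran from -1.17 log2 CPM per 10% GC in knockdown unstressed replicate 7 to 1.21 in LacZ unstressed replicate 1. Its group means lay between -0.02 and 0.01, so it divided mice within groups rather than groups. In bulk tissue, fewer cells of a type and less RNA per cell cannot be told apart.

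GABA synthesis was represented by Gad1 and Gad2, which make GABA from glutamate, and Slc32a1, which loads it into vesicles. Gad1 (ENSMUSG00000070880, GRCm38 chromosome 2, 70553072 to 70602014, plus strand) had a lowest, median and highest level of 88.7, 127.3 and 258.6 CPM in knockdown stressed and of 111.9, 146.3 and 168.4 CPM in LacZ stressed libraries. The same 3 values were 100.5, 130.3 and 250.7 CPM in knockdown unstressed and 124.6, 158.8 and 176.7 CPM in LacZ unstressed libraries. The 4 groups overlapped over most of their range, and the lone high libraries were on the knockdown side in both stress states. Gad2 spread wider, from 71.7 to 496.8 CPM, with its highest value in knockdown stressed replicate 7 and the next at 269.7 CPM. Slc32a1 was counted far more sparsely, at 1.00 to 6.48 CPM, and 18.3% of its span lies in another gene, where fragments were not counted. A share of 21.0% of the Gad1 span is lost in the same way to its antisense gene Gad1os.

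The Dlx and Sp factors of the ventral forebrain were low or unmeasurable. Dlx1 and Dlx6 were at 0 in all 28 libraries, and both lie entirely inside annotated antisense or noncoding partners (Dlx1as for Dlx1, Dlx6os1 and Dlx6os2 for Dlx6). A fragment inside both of such genes was left uncounted, so these zeros do not show that the genes were silent. Their neighbours were counted, Dlx2 at 0.0702 to 0.684 CPM and Dlx5 at 0.323 to 2.46 CPM. Sp8, which marks caudal eminence and olfactory bulb interneurons, had the widest range of any tested member, from 0.361 to 14.1 CPM with a median of 1.96 CPM. Sp9, a related factor that is also used by striatal neurons, ranged from 0.540 to 7.68 CPM. Both peaked in knockdown stressed replicate 7.

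Factors of the medial eminence lineage differed in how well they were covered. Nkx2-1, which specifies this lineage in the embryo and is switched off in most cortical interneurons, had 0 to 5 fragments per library and was not tested. Lhx6, its downstream factor, is kept in adult parvalbumin and somatostatin cells and stood at 3.65 to 10.3 CPM. Sox6 ranged from 97.6 to 255.0 CPM, Satb1 from 63.7 to 226.5 CPM and Maf from 15.6 to 53.6 CPM. None of these 3 is particular to interneurons in the cortex. Sox6 is also made by oligodendrocyte precursors, Satb1 by excitatory neurons and Maf by microglia.

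Within the parvalbumin class, the calcium-binding protein gene Pvalb (chromosome 15, 78191114 to 78206400, minus strand) had lowest, median and highest levels of 3.12, 4.79 and 11.1 CPM in knockdown stressed and 3.98, 7.24 and 15.7 CPM in LacZ stressed libraries. Without stress these were 2.48, 4.97 and 10.9 CPM in knockdown and 2.63, 7.92 and 9.14 CPM in LacZ libraries. The groups overlapped almost fully. Tac1, the precursor of substance P, which some parvalbumin cells and many striatal projection neurons make, ranged from 4.39 to 24.8 CPM in 27 libraries and reached 71.0 CPM in knockdown stressed replicate 7. Erbb4, the neuregulin receptor of interneurons, spans 1075874 bp on chromosome 1, of which 1.15% is exonic, and fragments anywhere in the span were counted. It ranged from 347.0 to 2146.3 CPM.

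Somatostatin cells were represented by Sst, Npy and Cort, and the long-range projecting cells of this lineage by Nos1, Chodl and Tacr1. Sst (ENSMUSG00000004366, GRCm38 chromosome 16, 23889581 to 23890844, minus strand) and Cort encode related peptides. The last 42 coding bases of Sst are shown beside the stretch of Cort that matches them best without gaps. That stretch is coding bases 283 to 324 of 327, so it stops before the end of the Cort coding sequence. Both lines come from GENCODE M21 transcripts on GRCm38, without stop codons and with the 31 shared bases in capitals.
Sst: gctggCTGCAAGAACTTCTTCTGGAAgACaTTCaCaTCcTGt
Cort: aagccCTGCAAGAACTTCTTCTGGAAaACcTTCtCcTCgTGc
Their levels had little else in common. Sst was one of the steadiest members, from 13.5 to 35.5 CPM, with a biological coefficient of variation of 0.243 that was lower than in all but 17.6% of genes. Cort varied 14.0-fold between its lowest and highest library, from 0.205 to 2.86 CPM, and its coefficient was 0.662. Npy, an inhibitory peptide of somatostatin and neurogliaform cells, ranged from 4.69 to 20.9 CPM. The markers of long-range cells were scarce apart from Nos1, the neuronal nitric oxide synthase, at 3.49 to 33.2 CPM. Chodl stood at 0.340 to 2.23 CPM and Tacr1, the substance P receptor, at 0.915 to 7.02 CPM.

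Among genes of the caudal eminence cells, Vip ranged from 22.1 to 148.2 CPM and Cck from 7.76 to 97.1 CPM. Cck is made by excitatory neurons as well as by basket cells. Calb2, the calretinin gene, ranged from 1.79 to 10.6 CPM, and Tac2, the neurokinin B precursor, from 0.483 to 3.53 CPM with 1 library above. For layer 1 and neurogliaform cells, Reln, a secreted matrix protein, was the steadiest member of all, with a 1.88-fold range from 76.6 to 144.2 CPM. Ndnf was among the least steady, with a 13.4-fold range from 14.1 to 189.4 CPM and a coefficient of variation above that of 91.4% of genes. Of the lineage factors, Adarb2 ranged from 131.9 to 567.0 CPM and Prox1 from 7.69 to 24.0 CPM.

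The plot of 12 members by group shows how far the groups overlap.

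**Figure D1:**
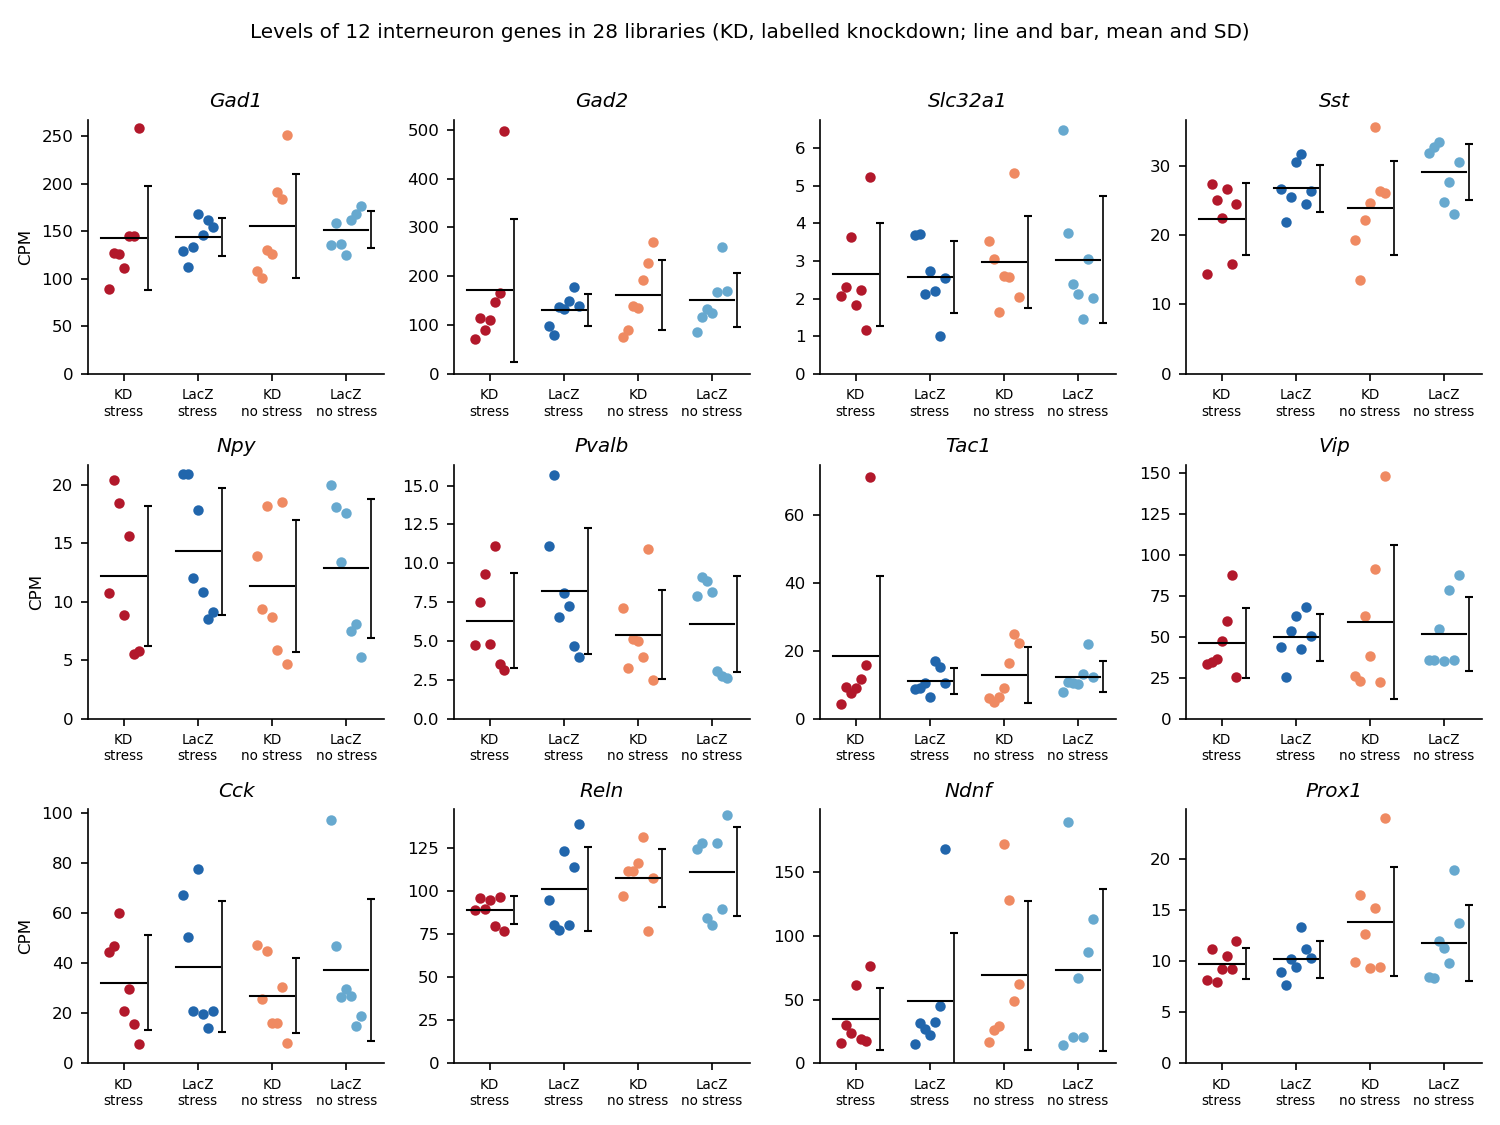
Each point is 1 library, in CPM, for 12 members, with the 4 groups side by side, the line at the group mean and the bar 1 SD long on each side, stopping at 0. The groups overlap in every panel, and the point at 496.8 CPM for Gad2 and at 71.0 CPM for Tac1 is knockdown stressed replicate 7.

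Per kilobase of gene span, the median level was highest for Sst at 20.4 CPM per kb, followed by Vip at 5.13 and Cck at 4.58 CPM per kb. Gad1 had 2.88, Gad2 1.90 and Npy 1.67 CPM per kb. These peptide genes are short with few introns, and a span-based scale lowers genes with long introns such as Erbb4, at 0.661 CPM per kb, so the order describes these counts and not numbers of mRNA molecules. Among the tested members, the lowest levels per span were those of Chodl at 0.0380 and Tacr1 at 0.0187 CPM per kb.

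Setting the knockdown label against LacZ asked whether interneuron genes depended on the virus. No member passed in either stress state or in their average. Without stress, 0 of 28 members passed edgeR's quasi-likelihood test (Benjamini-Hochberg adjusted p under 0.05), against 0% of all 19171 genes, and 0 members had an unadjusted p under 0.05, against 0.897% of all genes. With stress the counts were again 0 called members, against 0% of all genes, and 0 at the unadjusted level, against 0.824%. DESeq2 called 0 genes in each, with 253 and 175 genes at an unadjusted p under 0.05, and limma voomWithQualityWeights called 0, with 694 and 870. Of the members' log2 fold changes, 17 of 28 were below 0 without stress, with a median of -0.05 and a range from -0.68 to 0.49. With stress 13 of 28 were below 0, with a median of 0.01. Over all genes tested 52.9% and 57.7% were below 0, with medians of -0.01 and -0.03. Without knockdown stressed replicate 7, 22 of the 28 members were below 0 in the stressed comparison and the median became -0.13. The share of all genes below 0 without that library is not given here, so the shift is not read as particular to the members.

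The 3 members with the smallest p without stress were Maf, Chodl and Sst. Maf had lowest, median and highest levels of 19.1, 34.9 and 53.6 CPM in knockdown unstressed and 16.4, 25.5 and 30.6 CPM in LacZ unstressed libraries. Its highest knockdown libraries lay above every LacZ library, but 2 of the 7 were below the LacZ mean of log2 levels. The log2 fold change was 0.49 ± 0.24 (SE), with an unadjusted p of 0.0548 and an adjusted p of 1 by edgeR's quasi-likelihood test. Chodl had 0.340, 0.784 and 1.46 CPM in knockdown and 0.460, 1.33 and 1.74 CPM in LacZ libraries, a log2 fold change of -0.68 ± 0.39 at 16 to 88 fragments per library over all 28. With stress the smallest p values belonged to Tac1, Sst and Reln. Tac1 had 4.39, 9.32 and 71.0 CPM in knockdown stressed and 6.46, 10.6 and 17.0 CPM in LacZ stressed libraries. Its log2 fold change was 0.73 ± 0.48 with knockdown stressed replicate 7 and -0.21 without it. Reln had 76.7, 89.7 and 96.7 CPM in knockdown stressed and 77.3, 95.1 and 138.9 CPM in LacZ stressed libraries, a log2 fold change of -0.19 ± 0.15. It was -0.09 without LacZ stressed replicate 7 and -0.05 with surrogate variables as covariates.

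Sst was the member with the smallest p in the average over both stress states. It had lowest, median and highest levels of 13.5, 24.5 and 35.5 CPM in the 14 knockdown libraries, against 21.9, 27.1 and 33.4 CPM in the 14 LacZ libraries. The ranges overlapped, and 13 of the 14 knockdown libraries were below the LacZ mean of log2 levels. The log2 fold change was -0.27 ± 0.12, with an unadjusted p of 0.0324 and an adjusted p of 1 by edgeR's quasi-likelihood test. It was -0.28 without stress, or -0.18 there without knockdown unstressed replicate 2, and -0.26 with stress, and -0.28 without knockdown stressed replicate 7, where Dlx2 at -0.52 also had an unadjusted p under 0.05, as did 1.36% of all genes. Sst was the single member at an unadjusted p under 0.05 in this average, 1 of 28 against 1.52% of all genes, and 0% of genes were called. Peptides that share its cells did not pass either. The log2 fold change in the average was -0.21 for Npy and -0.37 for Cort. Of all 28 members 12 were below 0 in the average, against 55.9% of all genes. Without knockdown stressed replicate 7 the count was 21, and the share of all genes in that fit is not given.

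Stress against no stress asked whether 3 days of sCVS moved interneuron genes. Again no member passed, although most of the fold changes lay below 0. Under LacZ 0 of 28 members were called by edgeR's quasi-likelihood test, against 0% of all genes, and 0 had an unadjusted p under 0.05, against 0.402%. Under the knockdown virus 0 were called, against 0% of all genes, and 1 had an unadjusted p under 0.05, against 1.79%. DESeq2 and limma voomWithQualityWeights called 0 genes in both. They put 123 and 673 genes at an unadjusted p under 0.05 under LacZ, and 473 and 935 under the knockdown virus. The log2 fold changes of 23 of 28 members were below 0 under LacZ, with a median of -0.21, while 54.5% of all genes were below 0, with a median of -0.01. Under the knockdown virus 17 of 28 were below 0, with a median of -0.11 and 52.5% of all genes below 0. Without knockdown stressed replicate 7 the count under that virus was 23 of 28 and the median -0.24. The share of all genes below 0 without that library is again not given, so this shift too is not read as particular to the members. These comparisons use different mice. Members move together across libraries, as described further on, and are not independent replicates of the stress effect, so no test is attached to these counts.

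Prox1, the caudal lineage factor on chromosome 1 (190118035 to 190170714, minus strand), had the smallest p under the knockdown virus and in the average over both viruses. It had lowest, median and highest levels of 7.93, 9.25 and 11.9 CPM in knockdown stressed libraries, against 9.35, 12.6 and 24.0 CPM in knockdown unstressed libraries. All 7 stressed libraries were below the unstressed mean of log2 levels, though the ranges overlapped between 9.35 and 11.9 CPM. The log2 fold change was -0.50 ± 0.21, with an unadjusted p of 0.0222 and an adjusted p of 1 by edgeR's quasi-likelihood test. Under LacZ it had 7.69, 10.2 and 13.3 CPM in stressed and 8.36, 11.3 and 18.9 CPM in unstressed libraries, a log2 fold change of -0.21. In the average it was -0.36 ± 0.15, with an unadjusted p of 0.0214, and 13 of 14 stressed libraries were below the unstressed mean. Prox1 was the 1 member of 28 at an unadjusted p under 0.05 in that average, where 2.21% of all genes were and 0% were called. Without knockdown unstressed replicate 7, the library with its highest level, the value under the knockdown virus was -0.30, with an unadjusted p of 0.125. With limma voomWithQualityWeights it was -0.16, with an unadjusted p of 0.353. Without knockdown stressed replicate 7 the average had 4 members at an unadjusted p under 0.05, all below 0, against 3.01% of all genes, or 2.41% with values below 0. They were Prox1 at -0.39, Ndnf at -0.95, Adarb2 at -0.43 and Sp8 at -1.06. The choice to leave out this stressed library was made after seeing the data. It was the highest library for Sp8, at 14.1 CPM, so its removal by itself lowers the stressed level of Sp8. Unstressed libraries with Drd2 of 10.3 and 10.7 CPM stayed in, so the 4 values are not read as an effect of stress. Prox1 is also made by granule cells of the hippocampus and by lymphatic endothelium.

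The 3 members with the smallest p under LacZ were Chodl, Adarb2 and Calb2. Chodl had 0.359, 0.638 and 1.54 CPM in LacZ stressed and 0.460, 1.33 and 1.74 CPM in LacZ unstressed libraries, a log2 fold change of -0.68 ± 0.39. Adarb2, an RNA-editing relative that marks caudal eminence interneurons, had 131.9, 227.2 and 368.1 CPM in LacZ stressed and 193.9, 267.2 and 567.0 CPM in LacZ unstressed libraries. Its log2 fold change was -0.46 ± 0.28, with an adjusted p of 1 by edgeR's quasi-likelihood test. It was -0.27 without LacZ unstressed replicate 7 and -0.18 with limma voomWithQualityWeights. Calb2 had 2.45, 4.01 and 5.71 CPM in stressed and 2.76, 4.63 and 9.57 CPM in unstressed LacZ libraries, a log2 fold change of -0.40, or -0.18 without LacZ unstressed replicate 2. By class in the average over both viruses, the Dlx and Sp factors, the GABA synthesis genes and the neurogliaform pair had medians of -0.17, -0.10 and -0.50. Medians of the medial lineage, somatostatin, caudal lineage, and Vip, Cck and calretinin classes are not given. The caudal factors Prox1 and Adarb2 were at -0.36 and -0.35. Medial factors ran from -0.17 for Sox6 to 0.06 for Maf, and the somatostatin class from -0.48 for Nos1 to 0.13 for Npy. The Vip, Cck and calretinin class ran from -0.21 for Vip to 0.15 for Cck. The parvalbumin class had a median of 0.18, which was the value of Tac1. Without knockdown stressed replicate 7 the medians were -0.44 for the Dlx and Sp factors, -0.33 for GABA synthesis, -0.57 for the neurogliaform pair and -0.29 for the parvalbumin class. Ndnf contributed the lowest value of all members, -0.79 ± 0.43.

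**Figure D2:**
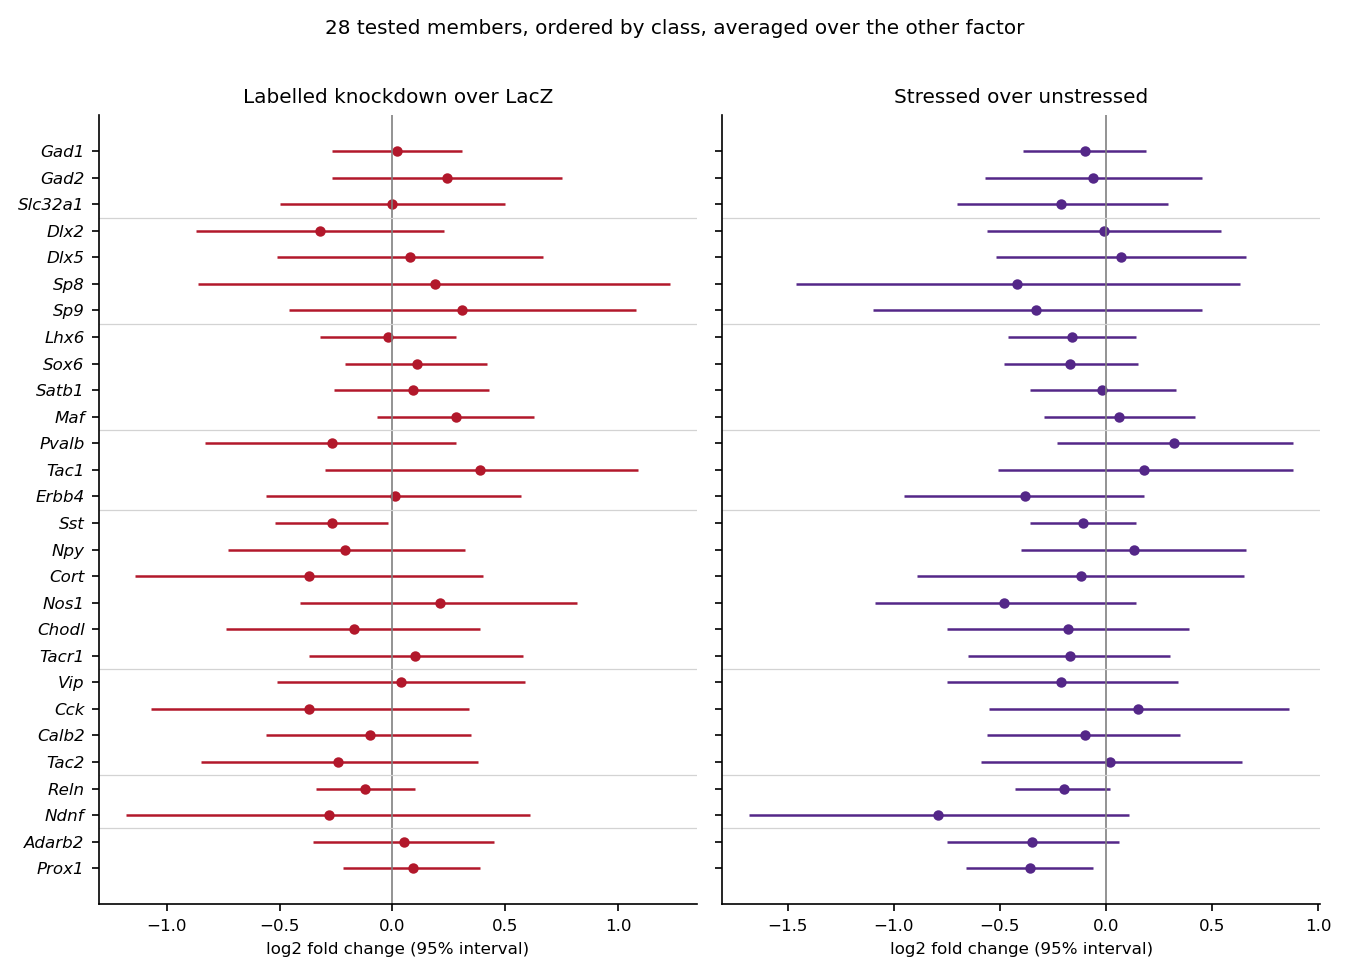
Log2 fold changes of the 28 tested members with 95% intervals, the labelled knockdown over LacZ on the left and stressed over unstressed on the right, each averaged over the other factor, with members grouped by class from top to bottom. Intervals that leave out 0 belong to Sst on the left and Prox1 on the right, and neither passed adjustment over all genes.

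The interaction asked whether stress acted differently under the 2 viruses, and no member passed. By edgeR's quasi-likelihood test 0 of 28 were called, against 0% of all genes, and 0 had an unadjusted p under 0.05, against 0.355%. DESeq2 and limma voomWithQualityWeights called 0 genes too, with 73 and 576 at an unadjusted p under 0.05. Chodl, Dlx5 and Calb2 had the smallest p values, with log2 differences between the stress effects of 1.00 ± 0.55, 0.79 and 0.59. Knockdown stressed replicate 7 was the highest library for all 3. Without it the differences were 0.62, 0.32 and 0.22.

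Other genes of the same interneuron classes, 55 in 5 lists, were counted in the same way. Of the 53 tested, 0 were called in any of the 7 comparisons, which were the 4 single ones, the 2 averages and the interaction. In the average over both viruses 36 of the 53 had a log2 fold change below 0 under stress, with a median of -0.10, against 53.7% of all genes. Grin3a, an NMDA receptor subunit enriched in somatostatin cells, had the smallest p of them, with a log2 fold change of -0.27 ± 0.10 and an unadjusted p of 0.00935. In the average over both stress states 30 of 53 were below 0 in the knockdown libraries, with a median of -0.02. Chat, which makes acetylcholine and is found in some Vip cells and in striatal cholinergic cells, had the smallest p there, at 0.97 ± 0.37. Nts, the neurotensin gene, led the stressed knockdown comparison at 1.66 ± 0.74. None of the 3 passed adjustment. Their comparisons all include knockdown stressed replicate 7, and values without it are not given.

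The members' largest differences were between mice and not between groups. Across the 28 libraries, log2 CPM of 23 of the 28 tested members was related to the GC slope at an adjusted permutation p under 0.05, 9 upwards and 14 downwards, with p values adjusted over the 28 relations. The slope is the main axis of the whole series, with r = 0.996 to a first principal component that holds 58.8% of the variance. Of all 19171 genes, 77.1% had an r at least as far from 0 as the weakest of the 23 members, 0.39. The members themselves were left out when the slope was computed. Cort had r = 0.89 and rho = 0.85, Nos1 had r = 0.87 and rho = 0.86, and Cck had r = 0.86 and rho = 0.85. At the other end, Erbb4 had r = -0.91 and rho = -0.92, and Sox6 had r = -0.80 and rho = -0.73. The permutation p of each r was 1.00e-05, the smallest that 100000 resamples can give, and 2.33e-05 after adjustment. Without the 2 libraries farthest on the slope, r was 0.86 for Cort, 0.84 for Nos1, -0.90 for Erbb4 and -0.75 for Sox6. Library names carry a number whose meaning is not given, and the relation was recomputed in names up to 20 and above 20. For Erbb4 r was -0.86 in the 15 libraries up to 20 and -0.88 in the 13 above, and for Cort 0.85 and 0.78. For Sox6 it was -0.82 and -0.45. The 5 members that did not pass were Ndnf at r = -0.34, Sst at r = -0.14, Reln at r = -0.10, and Dlx2 and Tacr1 at r = 0.09 each.

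**Figure D3:**
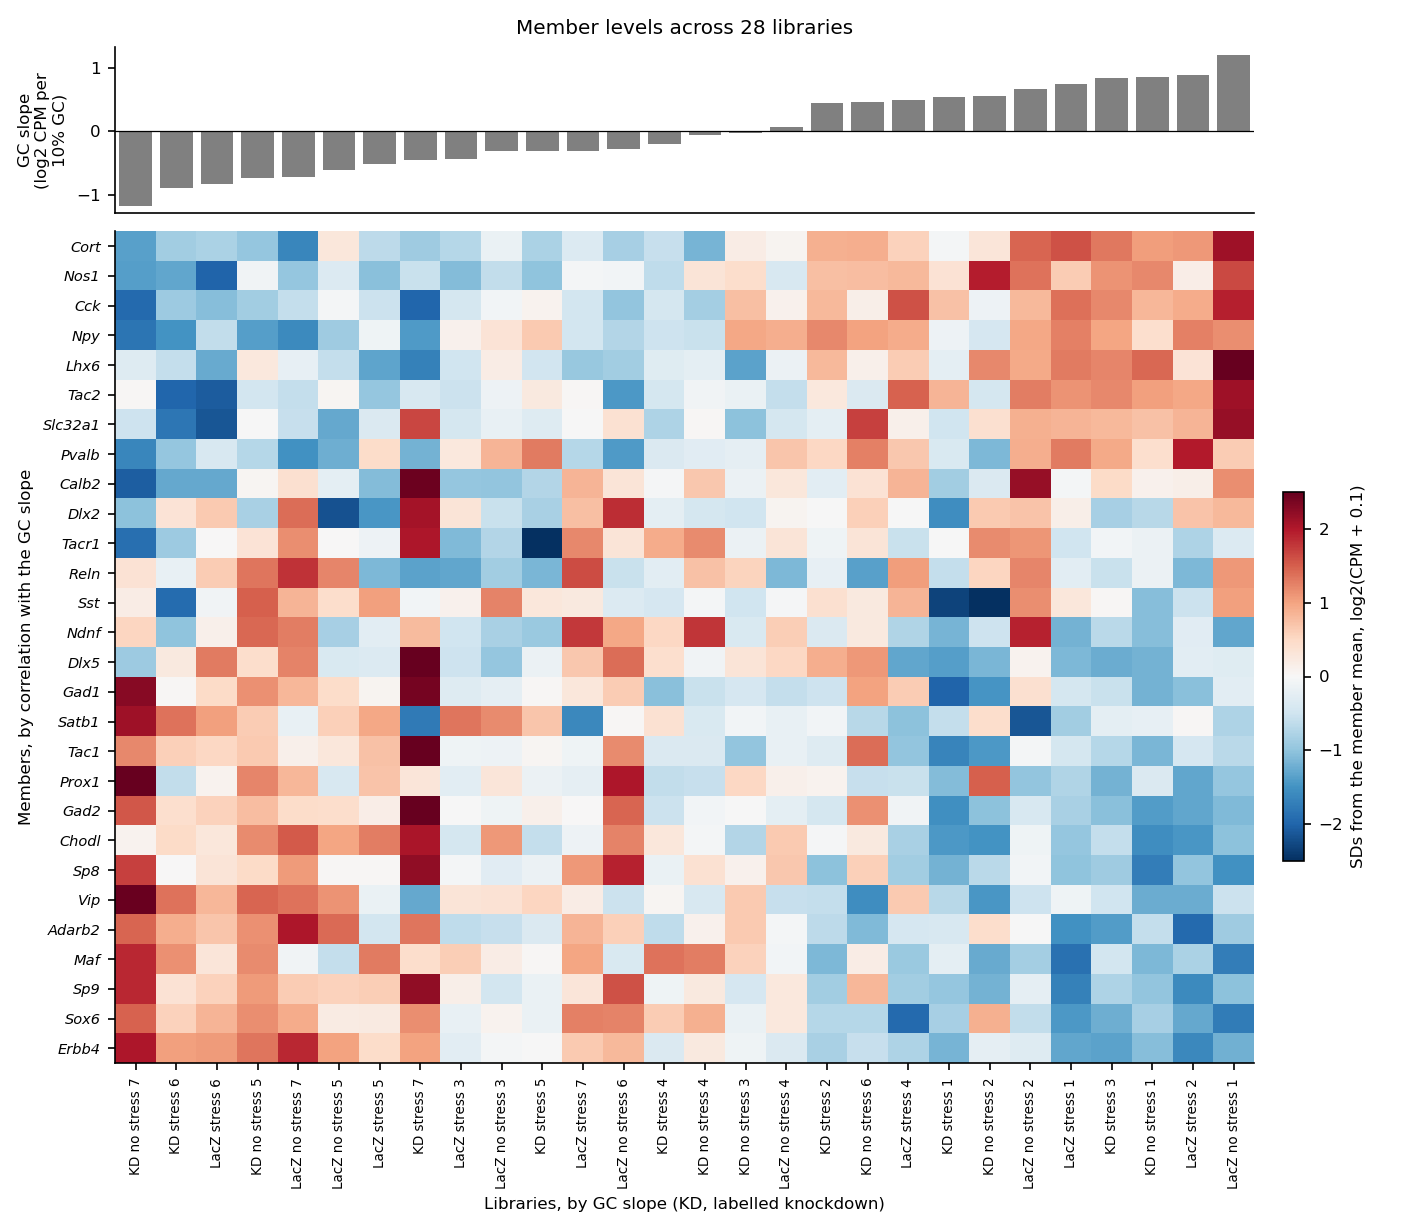
Log2 levels of the 28 tested members (rows, in SDs from each member's mean) in the 28 libraries (columns), which are ordered by the GC slope shown as bars above. Red and blue change sides along the order, with Cort and Nos1 high on the right and Erbb4 and Sox6 high on the left, and libraries of all 4 groups are mixed along it.

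Across the 28 members, r with the GC slope correlated with the G and C share of the longest transcript at r = 0.74 and rho = 0.72, a description over genes that are not independent. The slope was itself fitted on the transcript share of the other genes, so a positive relation largely follows from its definition. The same value over all genes is not given, and the relation is not read as particular to the members. All 11 members with a positive r had a share of at least 49.3%. Counts cover whole gene spans, of which exons are 1.15% for Erbb4, 2.61% for Sox6, 6.27% for Nos1 and 39.1% for Cort. In genes with long introns the transcript share thus describes a small part of the span counted. A role of span or intron content was not tested. Sequences of the members at both ends are shown so that the contrast can be seen. Each line is the 90-base coding stretch whose G and C share lies closest to that of the whole transcript, from GENCODE M21 transcripts on GRCm38, with G and C in capitals.
Erbb4: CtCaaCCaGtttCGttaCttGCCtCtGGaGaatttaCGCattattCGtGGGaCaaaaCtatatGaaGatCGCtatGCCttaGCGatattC
Sox6: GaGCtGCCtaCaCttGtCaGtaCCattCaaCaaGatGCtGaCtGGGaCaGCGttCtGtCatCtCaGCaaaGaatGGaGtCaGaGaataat
Cort: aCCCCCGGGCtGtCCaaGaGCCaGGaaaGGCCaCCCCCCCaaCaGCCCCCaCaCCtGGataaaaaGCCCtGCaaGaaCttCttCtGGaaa
Nos1: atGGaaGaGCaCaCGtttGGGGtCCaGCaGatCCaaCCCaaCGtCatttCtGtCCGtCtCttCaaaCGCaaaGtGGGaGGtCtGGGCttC
The Erbb4 and Sox6 stretches hold 37 and 41 G or C bases, and those of Cort and Nos1 hold 53 and 48. Over the whole transcript the shares are 40.6% for Erbb4, 46.1% for Sox6, 58.5% for Cort and 53.8% for Nos1. Over the coding sequence alone they are 47.8%, 52.1%, 64.8% and 56.1%. The stretches were picked by their share, so they illustrate the transcript values and are not typical of the coding sequence. Sst lay below the trend, with a share of 56.0% and r = -0.14. With group means and the mitochondrial share removed its r was 0.69, with an adjusted permutation p of 1.75e-04. Sp9 lay below it too, with 52.5% and r = -0.77, as did Sp8 with 49.6% and r = -0.72 and Dlx5 with 54.7% and r = -0.39. Of the 14 members with the higher shares 10 had a positive r, and of the 14 with the lower shares 13 had a negative r.

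**Figure D4:**
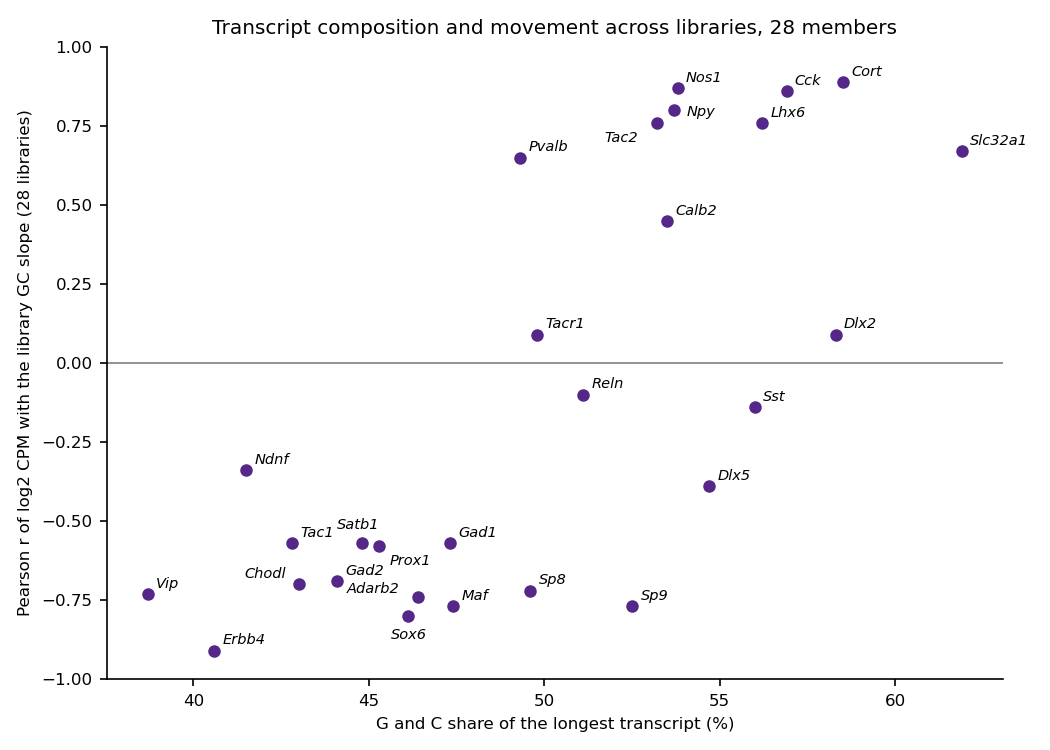
Pearson r of each member's log2 CPM with the library GC slope (vertical axis) against the G and C share of its longest transcript in percent (horizontal axis), 1 point per tested member. The points mostly rise from Vip at 38.7% and r = -0.73 to Slc32a1 at 61.9% and r = 0.67. Erbb4 at 40.6% and r = -0.91 and Cort at 58.5% and r = 0.89 are the extremes of r. Sst, Sp9, Sp8 and Dlx5 lie below the trend.

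The share of counts from mitochondrial genes ran from 2.30% to 14.2% and moved against the GC slope, with r = -0.87 and rho = -0.88 over the 28 libraries (permutation p of 1.00e-05 for each) and r = -0.84 without the 2 farthest. By r, 13 members were related to it upwards and 7 downwards, at an adjusted permutation p under 0.05 in a family of 56 relations that also held the striatal list. Of all genes, 69.1% had an r at least as far from 0 as the weakest of these 20 members, 0.45. Vip had the highest r, 0.79 with rho = 0.79, and Nos1 the lowest, -0.77 with rho = -0.76. With group means and the GC slope removed from both measures, which was chosen after seeing the data, 2 members passed, Sst at r = 0.78 and Tac2 at r = 0.60. The summed level of 15 detected striatal genes was highest in knockdown unstressed replicate 2. This sum ran from 445.7 to 947.2 CPM, with 931.0 CPM in knockdown stressed replicate 7. Pvalb was the 1 member related to it, at r = -0.45 and rho = -0.41 with an adjusted permutation p of 0.0393 for r and 0.0838 for rho. Without the 2 farthest libraries its r was -0.33 and did not pass. Shares over all genes are not given for the striatal list or for the form with the GC slope removed, so these counts are not read as particular to the members. Whether tissue content, RNA quality or library preparation lies behind these gradients was not tested.

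Several pairs of genes listed for the same or a related interneuron class did not move together across libraries. Of 16 pairs listed, 14 could be computed, since Dlx1 and Dlx6 were at 0. Pooled over the 28 libraries, 3 pairs were positively and 3 negatively related at an adjusted permutation p under 0.05 over the 14. Gad1 and Gad2 kept together, at r = 0.89 and rho = 0.88. Gad1 and Slc32a1, which the same neurons need to release GABA, had r = 0.08 and rho = -0.00. With group means and the GC slope removed from both, r for Gad1 and Slc32a1 was 0.73, with an adjusted permutation p of 9.33e-05. Vip and Cck, listed in 1 class here although Cck is also made by basket cells and excitatory neurons, had r = -0.36 pooled and r = 0.77 in that form. Nos1 and Chodl, both listed here for the long-range cells, had r = -0.57 pooled, with an adjusted permutation p of 0.00584, and r = 0.18 in that form. Lhx6 and Sox6, both of the medial lineage, had r = -0.64 pooled and r = -0.24. Whether Sst tracked its companions depended on the form. With Npy it had r = 0.14 pooled, r = 0.39 with the slope removed and r = 0.59 with group means and the mitochondrial share removed instead. With Cort it had r = 0.03, r = 0.24 and r = 0.56, and with Lhx6 r = 0.06, r = 0.25 and r = 0.49. In the last form alone all 3 passed, with adjusted permutation p values of 0.00481, 0.00549 and 0.0212. That form gave 5 positive and 2 negative pairs of the 14, and the slope-removed form 4 and 0. In the 15 libraries numbered up to 20 and the 13 above, r was 0.02 and 0.25 for Gad1 with Slc32a1, -0.32 and -0.34 for Vip with Cck, and -0.55 and -0.42 for Nos1 with Chodl.

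Entering the GC slope as a covariate, also chosen after seeing the data, gave lower unadjusted p values and 0 called genes (0%). In the stress average 10.2% of all genes had an unadjusted p under 0.05, 7.59% with lower levels under stress. Of the members 4 of 28 did, all with values below 0. Nos1 had a log2 fold change of -0.45 ± 0.12 with an adjusted p of 0.411 by edgeR's quasi-likelihood test. Erbb4 had -0.35 ± 0.10, Adarb2 -0.34 ± 0.12 and Prox1 -0.33 ± 0.11, each with the same adjusted p. Of these 4, Nos1 has a G and C share of 53.8%, and Erbb4, Adarb2 and Prox1 have 40.6%, 46.4% and 45.3%. Under the same covariate the knockdown average gave Sst -0.28 ± 0.11 and Maf 0.25 ± 0.10, with adjusted p values of 0.653, where 7.37% of all genes had an unadjusted p under 0.05. Without the covariate the log2 fold changes under stress were -0.48 for Nos1, -0.38 for Erbb4 and -0.35 for Adarb2.

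Knockdown stressed replicate 7 was the highest of the 28 libraries for 11 of the 29 detected members, with Lhx6 and Cck at their lowest there. The share of all genes that were highest in this library is not given, so the count is not read as particular to interneuron genes. Gad2 stood at 496.8 CPM against a median of 136.1 CPM over all libraries, and Tac1 at 71.0 against 10.5 CPM. Dlx5 stood at 2.46 against 0.644 CPM, Sp8 at 14.1 against 1.96 CPM and Sp9 at 7.68 against 1.81 CPM. Gad1, Dlx2, Nkx2-1, Chodl, Tacr1 and Calb2 were the other members highest there. Sst at 24.5 CPM and Vip at 25.2 CPM ranked 19 and 26 of the 28 libraries there. Of 15 detected genes of striatal projection neurons, 8 were also highest in this library. Foxp1 of the same list was below its median there, at 171.3 against 203.4 CPM. Drd1 stood at 51.2 CPM against a median of 15.7 CPM, Drd2 at 17.5 against 1.56 CPM, Rarb at 192.5 against 21.9 CPM and Isl1 at 13.3 against 0.119 CPM. Of 9 genes of the septum and subcortical nuclei 5 were highest there, Zic1 at 158.0 against 15.8 CPM among them. Of 12 detected genes of excitatory cortical neurons, 6 were at their lowest there. Foxp2 of that list was at its highest there, at 325.3 against a median of 82.4 CPM. The part of such transcripts in the members' levels was not tested beyond leaving the library out.

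**Figure D5:**
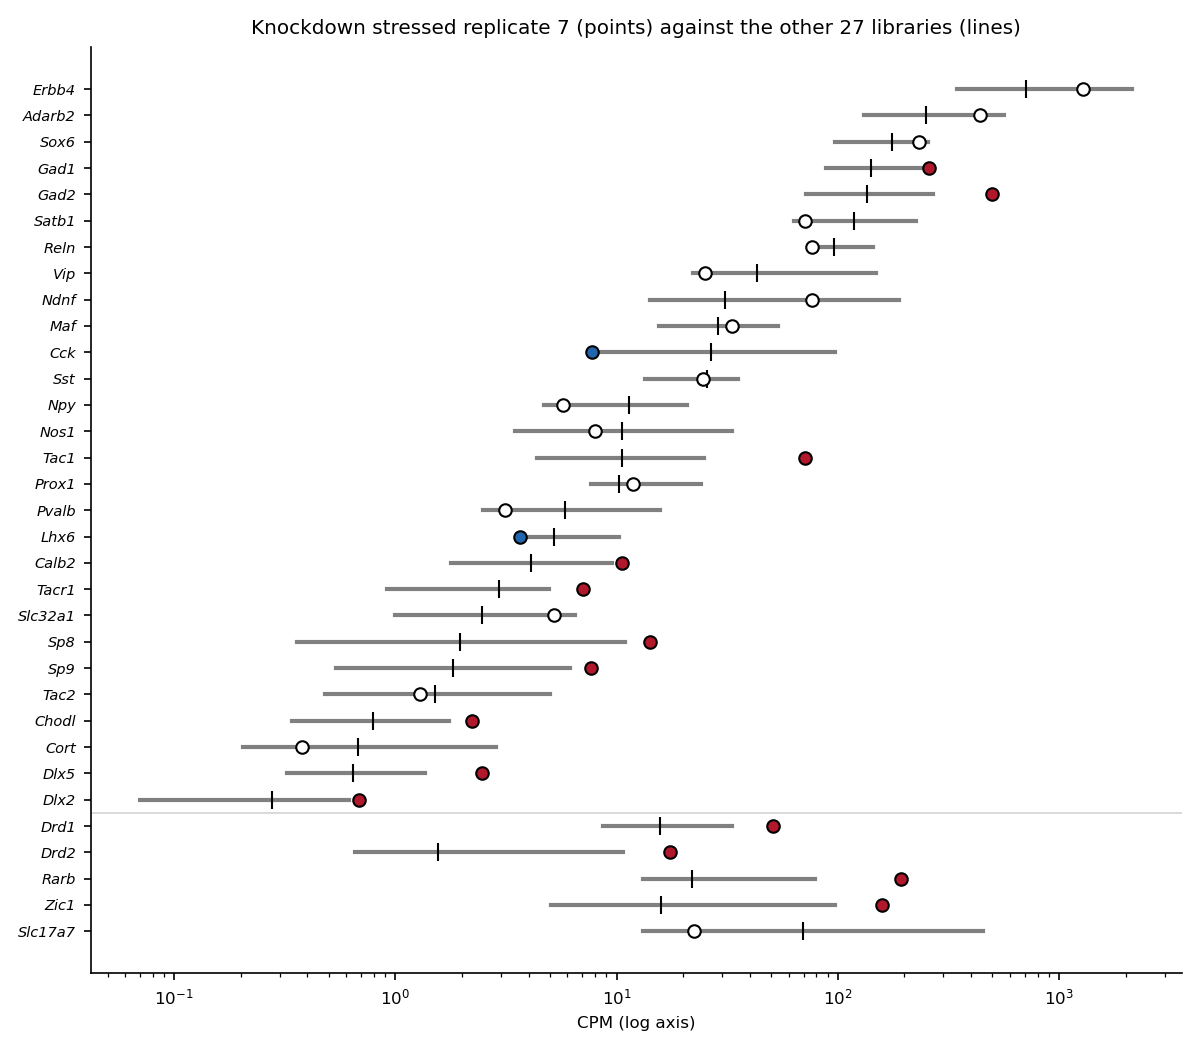
Level of the 28 tested members and, under the line, of 5 genes of other neurons in knockdown stressed replicate 7 (points) with the range of the other 27 libraries (grey lines) and the median of all 28 (ticks), in CPM on a log axis. Red points lie above and blue points below that range, with Gad2, Tac1, Drd2 and Rarb far above and Lhx6 and Cck below.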

How the data were processed

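RNA was sequenced from 28 libraries, each from 1 individual mouse per the labels, so p-values measure the spread between mice. The deposited values are raw counts of fragments per gene: per the file headers, the authors ran featureCounts 1.6.2 on read pairs over whole gene spans of Ensembl release 90 (GRCm38), without strand and with fragments in overlapping genes left out, after duplicates were removed. Intronic fragments are therefore included, and a gene and an overlapping one cannot be separated. HISAT2, Subread and DESeq2 are listed in the submitters' processing notes. Total counts ran from 30.6 M to 44.3 M. The smallest chi-square per gene between any 2 libraries was 8.54, so none was counted as a duplicate.

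Members were matched by symbol (52403 of 52636 identifiers had one). The members and all lists were chosen with earlier results of these data known. One edgeR 4.0.16 quasi-likelihood fit (R 4.3.3, TMM, filterByExpr by group, robust) had 1 coefficient per group, and p-values were adjusted by Benjamini-Hochberg over 19171 genes and called under 0.05. It was tested on simulated data. The level of 1 gene of another cell type is not reported here. Intervals are 95%. Members at an unadjusted p under 0.05 in a comparison, or otherwise the 3 with the smallest p, are given with their values, and up to 2 of the other interneuron genes. Relations use log2 CPM (prior count 2) and two-sided permutation tests with 100000 resamples (scipy 1.17.1, numpy 2.4.6, pandas 2.3.3, Python 3.11.15). The GC slope is the regression slope of log2 CPM on transcript GC content (GENCODE M21), per 10% GC. Alternatives were DESeq2 1.42.0, limma 3.58.1 voomWithQualityWeights, RLE factors, other count filters (none, or CPM of at least 1 in 7 libraries), covariates (mitochondrial share, striatal list, title number, GC slope, 2 surrogate variables from sva 3.50.0), the 2 groups compared alone, libraries left out and an adjusted p under 0.1.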

Additional observations from a re-analysis of the deposited data

Results flagged for a closer look

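Of 112 groups of 7 libraries tested for 1 library far from the rest, 6 were flagged, and chance flags about 1 in 20. In knockdown stressed replicate 7, Sp8 stood at 14.1 CPM, far above the other 6 libraries of its group, and Sp9 at 7.68 CPM with the nearest at 2.26 CPM. Knockdown unstressed replicate 7, which had the lowest GC slope and the highest mitochondrial share of all 28 libraries, was low for Tacr1 at 1.32 CPM, with the nearest at 2.80 CPM, and for Calb2 at 1.79 CPM, with the nearest at 3.55 CPM. Tac2 stood at 2.78 CPM in knockdown unstressed replicate 1, with the nearest at 1.63 CPM. Dlx2 was low in LacZ stressed replicate 5 at 0.121 CPM, with the nearest at 0.272 CPM.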

How the results depend on the processing

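The count of called genes was 0 in each of the 7 comparisons under every alternative run. Tac1 in knockdown stressed against LacZ stressed libraries reversed from 0.73 to -0.21 without knockdown stressed replicate 7 and lay between -0.21 and 0.90 with 1 library left out. It was -0.00 with limma voomWithQualityWeights; apart from that library, the cause was not tested. Sst over both stress states stayed below 0 in 14 other settings (-0.28 to -0.22) and 28 fits that left out 1 library each (-0.33 to -0.22, unadjusted p from 0.00751 to 0.0580 by edgeR's quasi-likelihood test). Prox1 over both viruses lay between -0.39 and -0.19 and, with 1 library left out, between -0.40 and -0.26. The interaction of Chodl ranged from 0.62 to 1.44. Members related to the striatal list numbered 1 as reported. That count was 0 with group means removed, 0 without the 2 farthest libraries, 0 without knockdown stressed replicate 7, 9 with group means and mitochondrial share removed and 2 with group means and GC slope removed. No share over all genes is given beside these counts. Members related to the mitochondrial share numbered 20 as reported and 2 with group means and GC slope removed. Leaving out knockdown stressed replicate 7, the GC slope as a covariate and the relations to the GC slope were chosen after seeing the data. Low counts limit Dlx2, at 2 to 27 fragments per library, and Cort, at 5 to 137. No paired analysis was possible because the replicate numbers follow accession order and pair no mice.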
